A study of Mus musculus with 24 samples.

Results

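Cytosolic ribosomal protein genes encode the protein components of the large and small ribosomal subunits that translate messenger RNA outside mitochondria. Members were protein-coding genes of the count table whose mouse symbol starts with Rpl or Rps followed by a digit, together with Rpsa, Rplp0, Rplp1 and Rplp2. Genes of the Rps6k kinase family, names with -ps and Gm names were left out, and the mean over the libraries had to reach 1 CPM, the counts of a gene scaled to a fixed library size. The rule found 83 members among 35191 rows. Of these, 43 encode large subunit proteins, 31 encode small subunit proteins and 3 encode the stalk of the large subunit. A further 4 are paralogs (Rpl22l1, Rpl36al, Rps27l and Rps27rt). The names of 2 others match although they encode no ribosomal subunit: Rps19bp1, a binding partner of Rps19, and Rpl7l1, a nucleolar relative of Rpl7. Rpl39l (0.171 CPM) and Rpl3l (0.230 CPM) lay below the minimum, and Rpl36al (1.04 CPM) was the member nearest above it. All 83 members passed the filter on low counts.

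Each ribosome holds a single copy of most of these proteins, so cells make them in matched amounts, and their messengers are among the most abundant in any tissue. Most of the messengers begin with a C followed by a run of pyrimidines, the terminal oligopyrimidine or TOP element, through which the TOR kinase pathway and the RNA-binding protein Larp1 set their translation and stability. In the pituitary, endocrine cells devote much of their translation to peptide hormones such as growth hormone (Gh), prolactin (Prl) and proopiomelanocortin (Pomc).

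The study sequenced RNA from mouse pituitaries labelled Egr1cKO, a conditional knockout of the zinc-finger transcription factor gene Egr1, and from controls. The 24 libraries form 8 groups of 3: males and females of 4 genotypes. The titles call the genotypes complete wild type, Cre control, Egr1cKO control and Egr1cKO, and the genotype tags read wt (-), wt (+), FF (-) and FF (+), where the sign is read here as Cre absent or present. Egr1cKO was compared with Egr1cKO control, which shares the FF tag, and Cre control with wild type, which shares the wt tag. The labels state neither the Cre driver nor the part of Egr1 meant to be removed, and neither strain nor age. Nothing in them says which libraries came from separate animals, so the p-values below cover the spread between libraries and no more, which may be technical.

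Total counts ran from 15486069 to 26255343 per library. Egr1 itself did not pass the test in any of the 14 comparisons: it ranged from 7.55 to 238 CPM over the 6 Egr1cKO libraries and from 9.79 to 51.1 CPM over the 6 Egr1cKO control libraries. Its log2 fold change was 1.79 in males (adjusted p = 0.886) and 1.83 in females (adjusted p = 0.468), and counts per gene do not show whether an exon was lost. A pair of libraries stood apart from their groups. Female wild type replicate 1 had 10.1% of its counts on mitochondrial transcripts against 2.14% and 2.70% in the other female wild type libraries. Male Cre control replicate 1 was higher than the mean of the other male Cre control libraries for 79 of the 79 members with a mean of at least 10 CPM, by a median of 0.88 on the log2 scale. Values without them are given beside the comparisons that use them. Pituitary hormone cell markers were present in every group, with summed levels of the somatotrope markers of at least 41362 CPM in each library.

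Promoter windows are shown for a selection of the members that passed a test below, because the TOP element lies at the start site of these genes. The RefSeq promoter table (GRCm38.p6) held 63 of the 83 members. Each line gives the coding strand from 80 bases before the annotated start to 20 bases from the start onwards. Capitals mark a run of at least 6 pyrimidines that begins with C within 5 bases of the start.
Rplp2 at chr7:141447571-141447670, plus strand: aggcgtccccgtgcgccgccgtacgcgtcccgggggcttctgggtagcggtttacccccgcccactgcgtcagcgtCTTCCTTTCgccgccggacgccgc
Rps27 at chr3:90213629-90213728, minus strand: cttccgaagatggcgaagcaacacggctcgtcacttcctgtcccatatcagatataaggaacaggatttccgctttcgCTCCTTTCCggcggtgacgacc
Rpl28 at chr7:4792885-4792984, plus strand: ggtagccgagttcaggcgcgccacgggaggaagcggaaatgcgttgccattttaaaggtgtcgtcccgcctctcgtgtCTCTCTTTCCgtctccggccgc
Rpl38 at chr11:114668500-114668599, plus strand: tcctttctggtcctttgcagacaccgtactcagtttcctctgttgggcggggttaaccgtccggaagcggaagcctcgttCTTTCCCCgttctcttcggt
Rps6 at chr4:86857348-86857447, minus strand: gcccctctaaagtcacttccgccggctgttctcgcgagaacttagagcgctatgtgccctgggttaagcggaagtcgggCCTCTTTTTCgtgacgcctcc
Rpl13a at chr7:45128726-45128825, minus strand: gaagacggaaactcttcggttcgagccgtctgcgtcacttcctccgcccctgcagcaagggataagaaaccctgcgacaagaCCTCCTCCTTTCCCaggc
Rpl12 at chr2:32961632-32961731, plus strand: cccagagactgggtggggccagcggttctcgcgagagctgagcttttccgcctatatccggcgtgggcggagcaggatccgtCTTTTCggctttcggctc
Rps4x at chrX:102189372-102189471, minus strand: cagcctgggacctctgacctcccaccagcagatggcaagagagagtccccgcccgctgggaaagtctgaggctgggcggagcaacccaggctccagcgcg

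Of the 63 matched members, 42.9% had such a run in a promoter window, against 11.9% of the 27025 genes of the table; Rps4x is an example without one at its annotated start. Rps19, Rps28 and Rps3a1, also called below and not shown, have no such run in their windows either. Other words were searched on both strands from 250 bases before to 50 bases after the start. CCGGAAG, the core of sites for Ets factors such as Gabpa, was in 39.7% of the matched members and 9.93% of all genes. AAGATGGCG, a Yy1 word, was in 6.35% against 1.64%, and GGGCGG, an Sp1 word, in 63.5% against 38.2%. The word GCGTGGGCG, bound by Egr1, was in 1.59% against 0.707%: the only matched member with it was Rpl12, where it stands in the window above. The related word GCGGGGGCG was in 9.52% against 3.31% (Rpl27a, Rpl7a, Rps13, Rps2, Rps24 and Rps27l). CACGTG, the E-box bound by Myc, was in 9.52% against 8.09%, and TATAAA in 11.1% against 15.7%. Some of these words overlap one another, GGGCGG and the Egr1 words among them. A match describes letters in the window, and these data hold no measure of binding.

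As a group the members took 1.76% to 4.30% of a library's counts, with a median of 2.87%. In males the share was 3.10%, 3.06% and 2.65% in wild type, 4.30%, 2.41% and 2.89% in Cre control, 2.68%, 2.76% and 2.84% in Egr1cKO control, and 3.33%, 3.60% and 3.56% in Egr1cKO. In females it was 1.79%, 3.44% and 3.21% in wild type, 3.02%, 3.38% and 3.52% in Cre control, 1.85%, 1.76% and 2.15% in Egr1cKO control, and 2.79%, 2.40% and 2.77% in Egr1cKO. The Egr1cKO libraries lay above their Egr1cKO controls in both sexes without overlap, and female Egr1cKO control was the lowest group. The wild type and Cre control groups overlapped in both sexes, the widest spreads being those of the 2 groups with a library that stands apart. Without the counts of Gh, Prl and Pomc, which took 11.3% to 35.8% of a library, female Egr1cKO control was 2.39% to 3.12% and female Egr1cKO 3.29% to 3.84%, again without overlap, while in males Egr1cKO (4.06% to 4.69%) and its control (3.52% to 4.17%) overlapped.

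**Figure D1:**
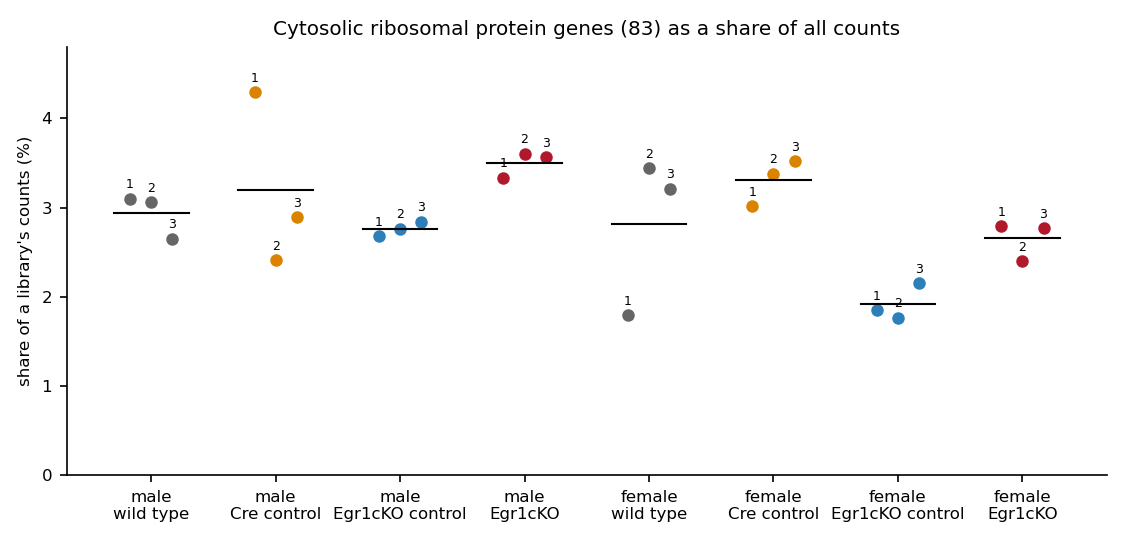
Share of all counts (%) taken by the 83 ribosomal protein members in each library, by group. Points are libraries with their replicate number, bars are group means, and replicate numbers pair nothing across groups. Female Egr1cKO control is lowest (1.76% to 2.15%), and male Cre control replicate 1 is highest at 4.30%.

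Levels of single members differed widely. Per kilobase of exon (RPKM, computed here from the CPM and the annotated exon length), the 77 subunit and stalk members ran from 1.37 to 1162 with a median of 212. The highest were Rplp1 (1162 RPKM), an acidic stalk protein that helps recruit elongation factors, Rpl36 (793 RPKM) of the large subunit and Rps15 (665 RPKM) of the small subunit. This order depends on the length used, here all annotated exon bases of a gene. Per kilobase of a single transcript, that with the longest coding sequence, Rpl10 was highest (1279), followed by Rplp1 (1162) and Rps12 (1028). Rps15 was then at 837 and Rpl36 at 793. The lowest members were Rpl36al (0.768 RPKM), Rpl24 (1.37 RPKM) and Rps10 (2.28 RPKM). Of the exon bases of Rpl24, 47.0% are shared with other gene models, Gm28037 holding most of them. The share is 28.7% for Rps10 (RPS10-NUDT3), 66.2% for Rpl35 (Wdr38) and 62.3% for Rpl23a (Tlcd1). In all, 39 members share some exon bases with another gene and 12 share at least 20%. How the authors counted such reads, or reads that also match a processed pseudogene, is not stated in the labels, and the libraries keep no strand, so the levels of these members are uncertain. The 195 rows named as ribosomal protein pseudogenes held 0.00698% to 0.0141% of the counts.

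The SD of the log2 means of the 8 groups had a median of 0.27 over the 71 members at 100 CPM or more, beside 0.26 over all 1593 genes at that level. Rps24 (0.17) and Rpl10 (0.19) were among the least variable. Rps3a1 (0.44), Rps6 (0.46) and Rpl24 (0.49) varied most, and Rpl24 averaged only 1.42 CPM. Female Cre control held the highest mean of 46 members and male Egr1cKO that of 27. Female Egr1cKO control held the lowest mean of 69 members, and male Cre control that of 11. How often other genes had their highest or lowest mean in these groups was not counted. These numbers are therefore not shown to be particular to the members.

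**Figure D2:**
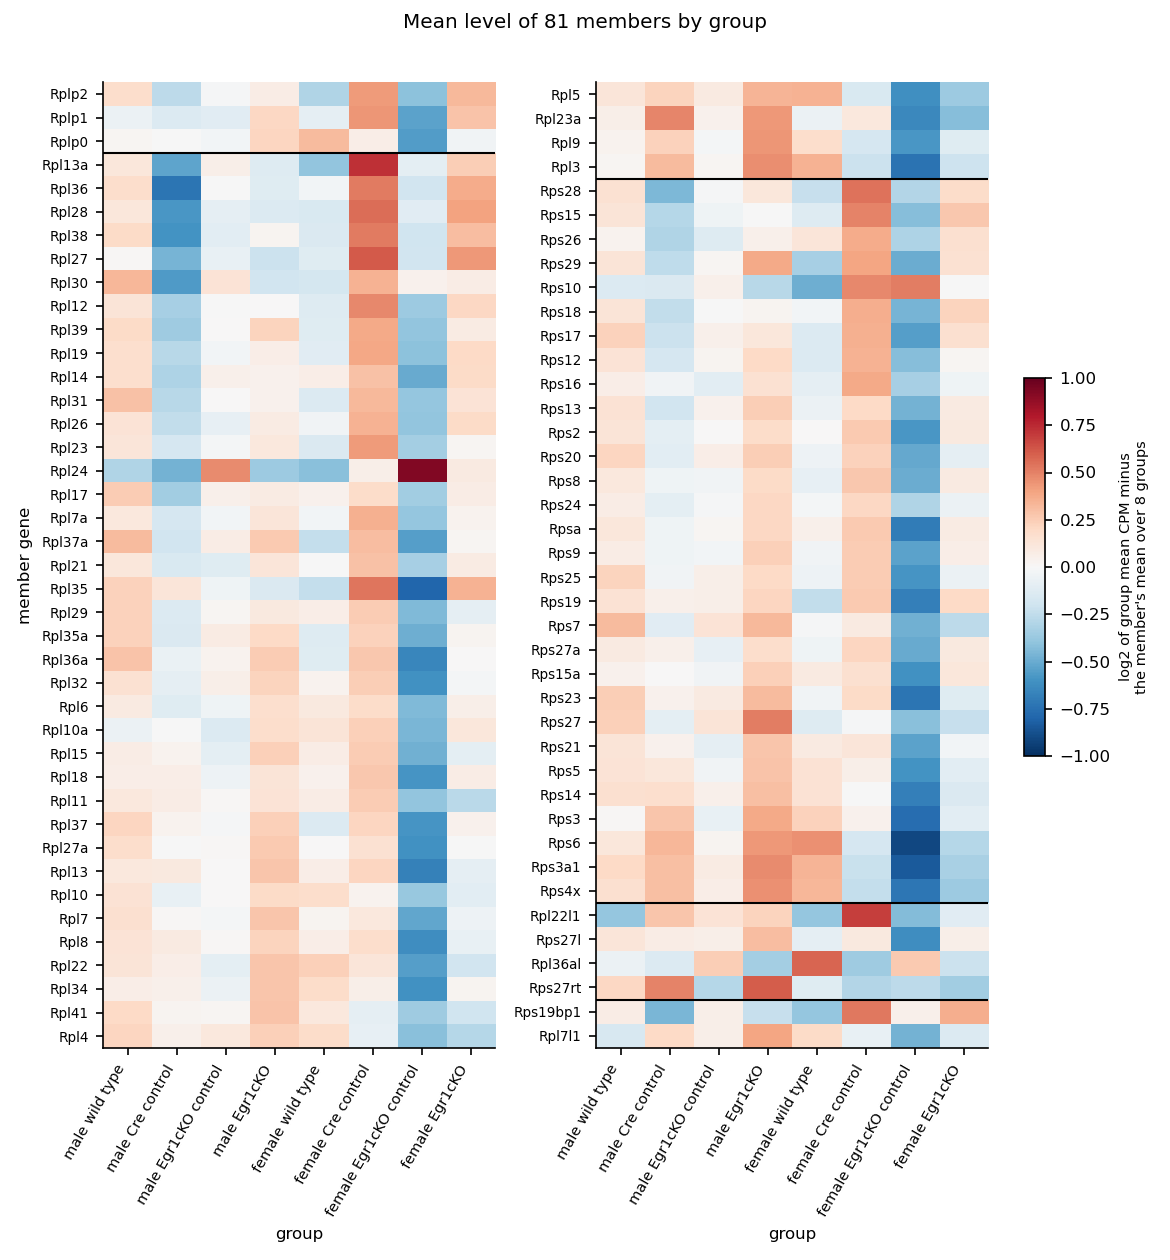
Mean level of 81 members in the 8 groups, as the log2 of the group mean CPM minus the average of that member's 8 values (red higher, blue lower). Lines separate, in order, stalk, large subunit, small subunit, paralogs and names without a subunit; within each block, members run from those highest in female relative to male Cre control at the top to those lowest at the bottom. The column of female Egr1cKO control is blue in most rows.

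In females, Egr1cKO pituitaries held more ribosomal protein messenger than their Egr1cKO controls for nearly every member, but few members passed the test. With edgeR's quasi-likelihood test and Benjamini-Hochberg adjustment over all 21927 genes, 2 of 83 members rose and 0 fell, beside 2.21% of all genes called (0.762% higher and 1.45% lower). The 2 were Rplp2, a stalk protein, and Rps19, a small subunit protein whose loss causes Diamond-Blackfan anaemia in people. The log2 fold change was above 0 in 79 of 83 members with a median of 0.52 (1.43-fold), while 46.2% of all genes were above 0 with a median of -0.05. Unadjusted p lay under 0.05 for 45 members, all higher, beside 7.16% of all genes in that direction. The 3 Egr1cKO libraries lay above the 3 controls without overlap for 62 members, beside 9.57% of all genes, and below them for 1 (11.9% of all genes).

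Rplp2 read 259, 275 and 326 CPM in female Egr1cKO and 180.0, 134 and 202 CPM in female Egr1cKO control. Its log2 fold change was 0.74 (SE 0.19, adjusted p = 0.0385). Rps19 read 261, 272 and 349 CPM against 159, 133 and 188 CPM, a log2 fold change of 0.88 (SE 0.24, adjusted p = 0.0495). For both genes every Egr1cKO library lay above every control library. Both calls were marginal: Rplp2 passed in 2 of 6 fits that left out 1 library (adjusted p up to 0.191) and Rps19 in 1 of 6 (up to 0.213). The log2 fold change of Rplp2 stayed between 0.58 and 0.87 in these fits and that of Rps19 between 0.74 and 1.01. The number of members called was 0 without Egr1cKO control replicate 1 or 2 or without Egr1cKO replicate 2 or 3, 1 without Egr1cKO control replicate 3, and 2 without Egr1cKO replicate 1.

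Rplp1, the other acidic stalk protein, had a log2 fold change of 0.82 (SE 0.23, adjusted p = 0.0594), and Rplp0, the scaffold of the stalk, 0.52 (SE 0.24, adjusted p = 0.237). Rpsa, a small subunit protein also known as the laminin receptor, had 0.79 (adjusted p = 0.0606), and Rps27a, which is made as a fusion with ubiquitin, 0.60 (adjusted p = 0.229). None of these 4 passed, although all lay on the same side. By role, the medians were 0.51 over the 43 large subunit members, 0.55 over the 31 small subunit members and 0.74 over the 3 stalk members.

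The same female libraries differed in their cell-type markers and mitochondrial share. Summed over the marker lists, corticotrope and melanotrope markers were 82219 to 226869 CPM in Egr1cKO against 11883 to 39242 CPM in control, and posterior lobe markers 304 to 418 CPM against 159 to 167 CPM. Somatotrope markers were 45246 to 64463 CPM against 107036 to 190603 CPM and lactotrope markers 21043 to 49195 CPM against 81342 to 140095 CPM. None of these 4 pairs of ranges overlapped, nor did those of the skeletal muscle markers, which reached 18.1 CPM in Egr1cKO and began at 52.0 CPM in control. The lactotrope list holds 2 genes, Prl and Drd2. By edgeR 1 of them was called higher and 1 lower in female Egr1cKO, so the lactotrope sum does not describe both. In bulk tissue, fewer cells of a type and less RNA per cell cannot be told apart, and the part of these markers in the ribosomal protein values was not tested. Mitochondrial transcripts took 8.73% to 10.4% of counts in female Egr1cKO and 3.50% to 6.87% in control. With that share as a covariate, 29 members were called higher, beside 14.1% of all genes called, and the median was 0.59, with 74 of 83 members above 0. The ranges of this share did not overlap, so Egr1cKO and the share cannot be told apart in these female libraries.

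In males, most members lay slightly higher in Egr1cKO than in control libraries, but none passed the test. By edgeR 0 of 83 members passed in either direction, beside 0.041% of all genes. The count was also 0 by DESeq2 and 0 at an unadjusted p under 0.05, which 2.88% of all genes reached on the higher side and 3.69% on the lower. The median log2 fold change was 0.19, against 0.03 over all genes, and 71 of 83 members were above 0, against 52.6% of all genes. The libraries did not overlap for 29 members that were higher in Egr1cKO and 1 that was lower, beside 10.8% and 10.2% of all genes. The smallest p-values were those of Rps27, a zinc-binding small subunit protein, and Rpl22 of the large subunit. Rps27 read 415, 437 and 479 CPM against 378, 291 and 347 CPM (log2 fold change 0.39, SE 0.21, adjusted p = 0.806). Rpl22 read 208, 220.5 and 214 CPM against 169.9, 163 and 163 CPM (0.38, SE 0.21, adjusted p = 0.824). Every Egr1cKO library lay above every control library for both genes, and neither difference passed the test. The male libraries also differed in markers without overlap: corticotrope and melanotrope markers were 39409 to 112426 CPM in Egr1cKO against 7512 to 31452 CPM, and somatotrope markers 103136 to 121793 CPM against 153317 to 374919 CPM. Their part in these values was not tested.

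The test of the difference between the sexes gave no member in either direction by edgeR or DESeq2, beside 0.0228% of all genes by edgeR. At an unadjusted p under 0.05 there were 6 members, all with a larger log2 fold change in females. The share of all genes at that threshold is not given here, so this count is not set against it. The median of these differences was 0.30. Rplp2 had the smallest p of the members (0.65, SE 0.27, adjusted p = 0.551), with Rpl35 next (1.23, SE 0.53, adjusted p = 0.564).

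**Figure D3:**
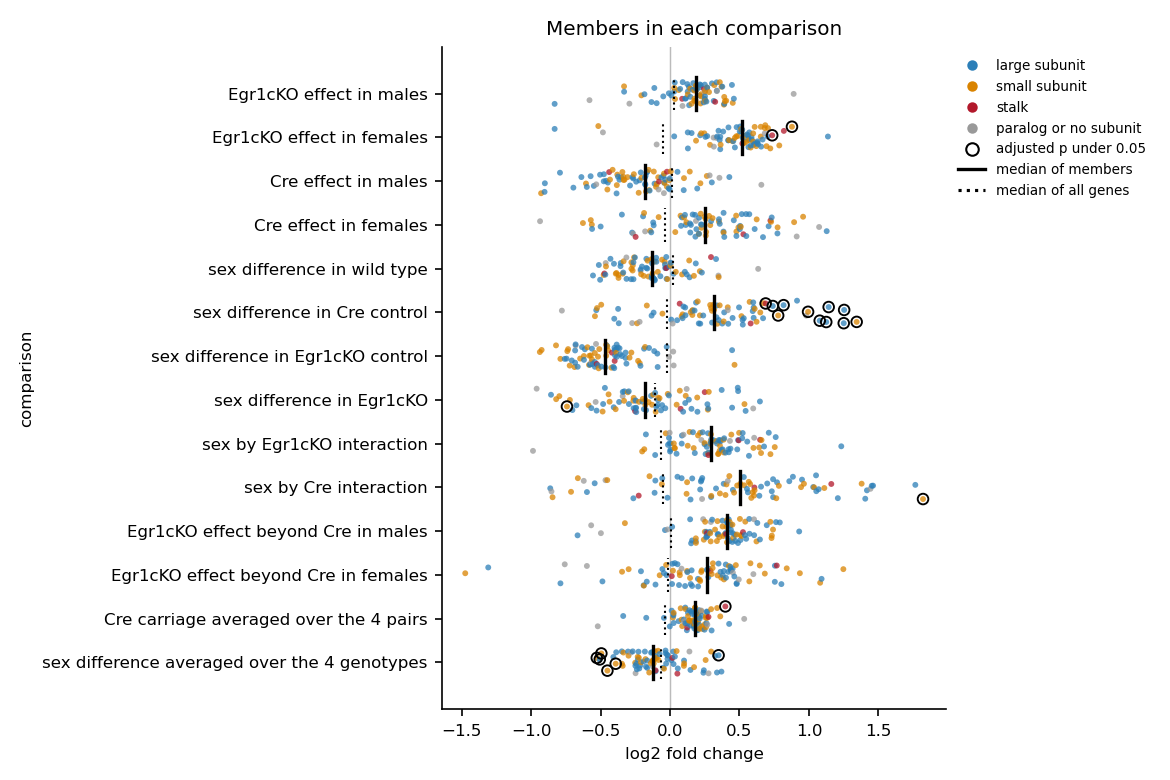
Log2 fold change of each member in the 14 comparisons (sex differences are female over male, interactions are female minus male effect). Colours give the role, open circles mark an adjusted p under 0.05, solid bars are the members' median and dotted bars the median of all genes tested. The members lie mostly right of 0 for Egr1cKO in females (median 0.52) and mostly left of 0 for the sex difference in Egr1cKO control (median -0.46).

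Cre control against wild type gave medians of opposite sign in the sexes, except that the male median turned positive when libraries were scaled by total counts alone (0.13, beside 0.34 over all genes). In males the median log2 fold change was -0.18 with 13 of 83 members above 0, and in females 0.25 with 65 of 83 above 0. By edgeR 0 of 83 members passed in males, beside 0.233% of all genes (0.0365% higher and 0.196% lower), and 0 of 83 in females, beside 1.21% (0.369% higher and 0.839% lower). DESeq2 called 1 member lower in males, beside 1.96% of the genes it gave an adjusted p, and 4 higher in females, beside 4.88%. At an unadjusted p under 0.05 there were 13 members in males, all lower, and 20 in females, all higher, beside 6.0% and 6.07% of all genes in those directions and 4.84% and 10.7% in the others. Groups did not overlap for 3 members lower in males and 29 higher in females, beside 10.5% and 8.02% of all genes. In the other directions there were 0 members, beside 11.1% and 6.83% of all genes.

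Rpl36 of the large subunit had 249.9, 130.0 and 155 CPM in males with Cre control status against 337, 449 and 213 CPM in wild type males (log2 fold change -0.90, SE 0.27, adjusted p = 0.191), and its groups overlapped. In females Rplp2 had the smallest p, at 318, 293 and 310.0 CPM in Cre control and 152, 205 and 201 CPM in wild type (0.72, SE 0.19, adjusted p = 0.0529). Its groups did not overlap. Rpl13a, a large subunit protein and part of a complex that silences inflammatory messengers, read 22.2, 16.7 and 24.1 CPM against 11.9, 8.90 and 8.0 CPM (1.13, SE 0.30, adjusted p = 0.0591). Rplp1 had 0.53 (adjusted p = 0.244) and Rplp0 -0.25 (adjusted p = 0.668), so the 3 stalk genes did not lie on 1 side.

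These counts turned on single libraries. Without female wild type replicate 1, 19 members were called in females, beside 15.5% of all genes, although the median dropped to 0.09. Without male Cre control replicate 1, the count in males stayed at 0 while the median was -0.54; without male Cre control replicate 2 it was -0.01. Marker levels moved with Cre as well. Lactotrope markers summed to 3221 to 4409 CPM in male Cre control against 36843 to 43664 CPM in wild type, and to 57944 to 75693 CPM against 113313 to 151365 CPM in females. In males 1 of the 2 lactotrope markers was called lower, while the other had a log2 fold change above 0. Somatotrope markers were 41362 to 89881 CPM against 188967 to 278625 CPM in males, and overlapped in females. Thyrotrope markers were 736 to 1203 CPM against 362 to 591 CPM in males, and 612 to 740.4 CPM against 240.4 to 254 CPM in females. Their part in the ribosomal protein values was not tested.

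The interaction of sex with Cre carriage called 1 of 83 members, beside 0.128% of all genes. DESeq2 called 14 members in the interaction, beside 6.44% of genes. Over all members the median was 0.51 with 26 at an unadjusted p under 0.05, all higher in females, beside 7.47% of all genes. The count rested on single libraries: it was 28 without male Cre control replicate 1 (beside 2.29% of all genes), 25 without female wild type replicate 1 (18 higher and 7 lower in females, beside 18.7% of all genes), 5 without male wild type replicate 3, and 0 in each of the other 9 fits that left out 1 library. The median was 0.86 without male Cre control replicate 1, 0.30 without male Cre control replicate 2 and 0.28 without female wild type replicate 1.

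Female and male Cre control gave the largest number of calls between single groups. By edgeR 11 of 83 members rose in females and 0 fell, beside 3.61% of all genes called (1.6% higher and 2.01% lower). Of these, 7 belong to the large subunit, 3 to the small subunit and 1 to the stalk. Among them were Rpl13a, Rpl36, Rpl28, Rpl38, Rpl27, Rps28, Rpl12, Rps15, Rpl39 and Rplp2. The median over all members was 0.32, with 28 at an unadjusted p under 0.05, all higher, beside 10.6% of all genes. Groups did not overlap for 17 members higher in females and 6 lower, beside 15.0% and 18.0% of all genes.

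Rpl36 read 249.9, 130.0 and 155 CPM in males and 425, 396 and 451 CPM in females (log2 fold change 1.25, SE 0.27, adjusted p = 0.0116). Rpl28, a large subunit protein, read 279, 145 and 161 CPM against 417, 403 and 471 CPM (1.14, SE 0.25, adjusted p = 0.0116). Rpl13a read 9.86, 7.70 and 8.86 CPM against 22.2, 16.7 and 24.1 CPM (1.25, SE 0.30, adjusted p = 0.0242). In these 3 genes every female library exceeded every male library. Of the exon bases of Rpl13a, 35.4% are shared with other gene models.

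Other members stayed level or lay on the male side. Rplp0 had a log2 fold change of 0.07 and Rps27a of 0.16, and neither passed. Rps3a1 and Rps6, both small subunit proteins, the latter the substrate of the S6 kinases, read 1049, 575 and 674 CPM in males against 479, 575 and 543 CPM in females, and 583, 325 and 382 CPM against 310.1, 302 and 303 CPM. The count of calls rested on single libraries: it was 34 without male Cre control replicate 1 (beside 4.19% of all genes), 1 without male replicate 2 or 3, and 3, 4 and 2 without female replicate 1, 2 and 3. The share of all genes is given for the first of these fits only. The median was 0.68 without male replicate 1 and 0.09 without male replicate 2. Rpl36 passed in 4 of 6 such fits, Rpl28 in 3 of 6 and Rpl13a in 2 of 6.

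Mitochondrial transcripts took 5.52% to 6.69% of counts in female and 2.08% to 3.20% in male Cre control. With that share as a covariate 3 members were called, beside 0.876% of all genes, and the median was 0.41. The calls of Rpl36 (adjusted p = 0.124), Rpl28 (adjusted p = 0.121) and Rpl13a (adjusted p = 0.201) were among those lost. Lactotrope markers summed to 57944 to 75693 CPM in females and 3221 to 4409 CPM in males, corticotrope and melanotrope markers to 51655 to 94809 CPM and 30679 to 47572 CPM, and posterior lobe markers to 256 to 281 CPM and 110 to 183 CPM. Of the 2 lactotrope markers, 1 was called higher in females and the other was not above 0. Stem and folliculostellate cell markers were lower in females, at 159.8 to 194.6 CPM against 204.6 to 225.1 CPM. These 4 pairs of ranges did not overlap, and those of the gonadotrope and thyrotrope markers did. Their part in the ribosomal protein values was not tested.

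**Figure D4:**
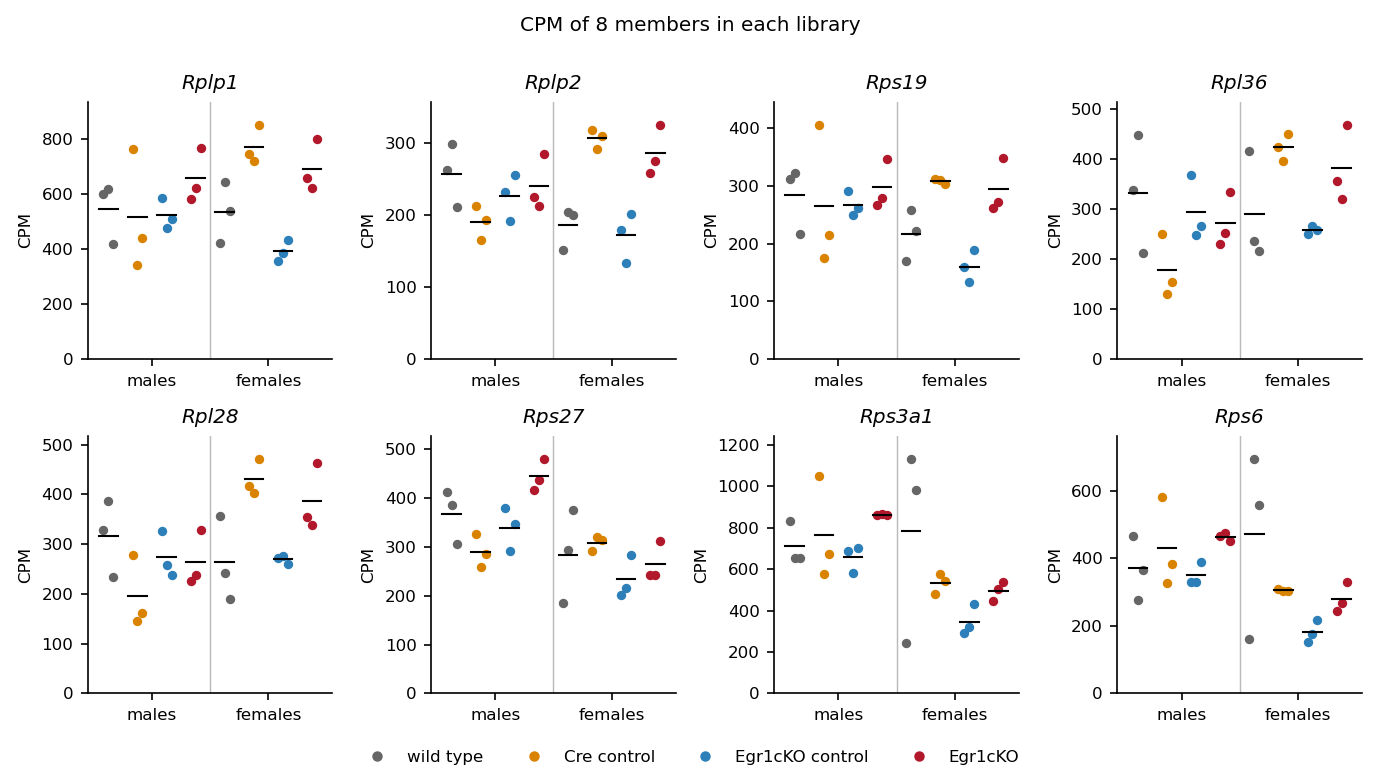
CPM of 8 members in each library (points) with group means (bars), for males on the left and females on the right of each panel, on linear axes from 0. Rpl36 and Rpl28 are low in male Cre control and high in female Cre control, whereas Rps3a1 and Rps6 are low in female Egr1cKO control and in female wild type replicate 1 (245 and 162 CPM).

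Among Egr1cKO controls the female level was below the male level for almost all members. The median log2 fold change was -0.46, 79 of 83 members were below 0, and the female libraries lay below the male ones without overlap for 62 members, beside 14.1% of all genes. By edgeR 0 of 83 members passed, beside 0.451% of all genes, with 38 at an unadjusted p under 0.05, all lower in females (7.61% of all genes, with 6.17% on the higher side), and DESeq2 called 1 lower. Rpsa had the smallest p: it read 439, 499.9 and 527 CPM in females and 839.5, 779 and 799.9 CPM in males (-0.72, SE 0.22, adjusted p = 0.157). Rps23 of the small subunit read 178, 188 and 253 CPM against 411, 312 and 372 CPM (-0.82, SE 0.26, adjusted p = 0.163). A model of these 2 groups alone called 24 members, all lower in females, the widest departure of any alternative in this comparison. The share of all genes called in that model is not given here, so the 24 cannot be read as particular to the members. Markers differed in these libraries too. Lactotrope markers summed to 81342 to 140095 CPM in females and 15341 to 46864 CPM in males, posterior lobe markers to 159 to 167 CPM and 51.5 to 129.8 CPM, and skeletal muscle markers to 52.0 to 88.9 CPM and 26.4 to 46.3 CPM. Here too, 1 of the 2 lactotrope markers was called higher in females and the other was not above 0. Stem and folliculostellate cell markers were 105 to 124 CPM in females and 166 to 176 CPM in males, and erythroid markers 184 to 344 CPM and 397 to 700.3 CPM. These 5 pairs of ranges did not overlap, while gonadotrope markers did. Their part in the ribosomal protein values was not tested.

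Among Egr1cKO libraries 1 member fell in females and 0 rose, beside 13.1% of all genes called (7.57% lower and 5.49% higher). It was Rps27, at 242, 242 and 311 CPM in females against 415, 437 and 479 CPM in males (-0.74, SE 0.21, adjusted p = 0.0224). The groups did not overlap. The call was lost in 5 of 6 fits that left out 1 library, those without any male replicate and those without female replicate 1 or 2 (adjusted p up to 0.0822), and with the mitochondrial share as covariate (-0.31, adjusted p = 0.638). The median over members was -0.18, against -0.11 over all genes.

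In wild type 0 of 83 members passed by edgeR or DESeq2, beside 0.283% of all genes by edgeR. The median was -0.13, and 3 members had an unadjusted p under 0.05, all lower in females, beside 3.27% of all genes on that side and 3.76% on the other. Libraries did not overlap for 3 members, all lower, beside 5.49% of all genes lower and 4.62% higher. Rplp2 (152, 205 and 201 CPM in females, 263, 299 and 212 CPM in males) had the smallest p, with a log2 fold change of -0.47 (SE 0.19, adjusted p = 0.557), and Rpl37a the next (-0.55, SE 0.24, adjusted p = 0.623). Without female wild type replicate 1 the median was 0.04 and 3 members passed, beside 4.41% of all genes.

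Averaged over the 4 genotypes, 5 members fell and 1 rose in females, beside 21.7% of all genes called (11.7% lower and 9.99% higher). The lower ones were Rps3a1 (-0.53, SE 0.16, adjusted p = 0.0215), Rpl23a (-0.51, SE 0.17, adjusted p = 0.0321), Rps4x (-0.49, SE 0.15, adjusted p = 0.0191), Rps6 (-0.45, SE 0.16, adjusted p = 0.0427) and Rps27 (-0.39, SE 0.10, adjusted p = 0.00883). The higher one was Rpl28 (0.35, SE 0.12, adjusted p = 0.0418). The share of members called was thus below the share of all genes. Rps4x, an X-linked small subunit protein, read 220.2, 886 and 789 CPM in female and 665, 500.4 and 517 CPM in male wild type, so the averaged direction did not hold there. In the other genotypes it read 393, 447 and 436 against 809.6, 477 and 570.0 CPM (Cre control), 253, 301 and 355 against 536, 488 and 547 CPM (Egr1cKO control), and 356, 365 and 449 against 709.8, 707 and 649 CPM (Egr1cKO), female before male and without overlap in these 3. The calls of Rps3a1, Rps4x and Rps27 held in 24 of 24 fits that left out 1 library. Those of Rpl23a, Rps6 and Rpl28 held in 17, 8 and 9 of 24, and the count of members called ran from 3 to 17. It was 17 without female wild type replicate 2, 13 without female wild type replicate 3 or male Cre control replicate 2, 11 without female Egr1cKO control replicate 3, and 10 without male wild type replicate 2 or male Cre control replicate 3. It was 3 without female Egr1cKO control replicate 2, male Egr1cKO replicate 1 or 2, male wild type replicate 1 or female Cre control replicate 1. Without the libraries that stand apart it was 8 (female wild type replicate 1) and 7 (male Cre control replicate 1). The median over members was -0.12, and -0.07 and -0.05 without these libraries. The shares of all genes called in the fits that left out 1 library are not given here. The counts of those fits therefore show only how the calls moved.

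The mitochondrial share was also 8.73% to 10.4% in female against 2.76% to 3.80% in male Egr1cKO, without overlap as in Cre control, and 3.50% to 6.87% against 2.20% to 3.55% in Egr1cKO control, with overlap. With it as a covariate 0 members passed in the averaged sex difference, and the log2 fold changes of Rps3a1, Rps4x, Rps6 and Rpl28 changed sign. How many of all genes passed in that fit is not given here. Sex and the mitochondrial share cannot be told apart where they do not overlap.

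Carriage of Cre, averaged over the 4 pairs of groups (Egr1cKO over Egr1cKO control and Cre control over wild type, in each sex), called 1 member higher, Rplp1, and 0 lower, beside 6.89% of all genes. Its log2 fold change was 0.40 (SE 0.12, adjusted p = 0.0353). In males Rplp1 read 766, 343 and 442 CPM in Cre control and 602, 618 and 418 CPM in wild type, whereas Egr1cKO held 582, 623 and 768 CPM and Egr1cKO control 587, 478 and 510.3 CPM. In females it read 745, 721 and 851 CPM in Cre control against 423, 645 and 539 CPM, and 658, 622 and 799.7 CPM in Egr1cKO against 358, 385 and 435 CPM. Only the female pairs were free of overlap. The call held in 15 of 24 fits that left out 1 library. The count of members was 0 without male Egr1cKO control replicate 2 or 3, female Egr1cKO control replicate 1 or 2, replicate 3 of either Egr1cKO group, male wild type replicate 3, male Cre control replicate 1 or female Cre control replicate 3. It was 2 without female wild type replicate 1, female Egr1cKO replicate 2 or male wild type replicate 2, and 3 without female wild type replicate 2 or male Cre control replicate 2. These counts have no share of all genes beside them. Over all members the median was 0.18, against -0.03 over all genes; it was 0.15 without female wild type replicate 1 and 0.09 without male Cre control replicate 1. The difference between the Egr1cKO effect and the Cre effect had a median of 0.41 in males and 0.27 in females. At an unadjusted p under 0.05 there were 7 members in males, all higher, and 7 in females, 6 higher and 1 lower. The share of all genes at that threshold is not given here. By edgeR and by DESeq2 0 members were called in either sex, beside 0.0% of all genes in males and 0.00456% in females by edgeR. Without female wild type replicate 1 the count in females was 11, beside 5.52% of all genes, and the median 0.38. In males the median was 0.76 without male Cre control replicate 1 and 0.20 without male Cre control replicate 2. These 2 contrasts have all 4 groups of a sex in them, and the comparisons above share their control libraries.

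The sums of the 2 subunits moved slightly apart. The summed CPM of the large subunit members over that of the small subunit members was 1.26, 1.28 and 1.29 in male Egr1cKO against 1.35, 1.34 and 1.31 in its control, and 1.35, 1.39 and 1.37 in female Egr1cKO against 1.48, 1.49 and 1.42. It was 1.27, 1.27 and 1.28 in male Cre control against 1.33, 1.37 and 1.36 in wild type. In each of these 3 pairs the ratio was lower with Cre and the groups did not overlap. In females it was 1.37, 1.35 and 1.38 in Cre control and 1.56, 1.32 and 1.28 in wild type, which overlap. Without Rpl10 and Rpl4, an alternative chosen after the data were seen, both male pairs stayed free of overlap and female Egr1cKO (1.20 to 1.23) and its control (1.22 to 1.30) overlapped.

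The paralogs and the names without a subunit passed in 0 of the 14 comparisons. Rps27l, a p53-responsive paralog of Rps27, averaged 37.7 CPM, and it had a log2 fold change of 0.68 for Egr1cKO in females (adjusted p = 0.106) at 33.2, 34.8 and 48.2 CPM against 23.1, 19.3 and 30.1 CPM. Rpl22l1, the paralog of Rpl22, read 19.8, 24.7 and 15.9 CPM in female Cre control against 3.39, 15.6 and 9.55 CPM in wild type (1.07, SE 0.40, adjusted p = 0.167). Rps27rt and Rpl36al averaged 2.03 and 1.04 CPM, so their folds rest on few reads. Rpl7l1 read 28.6, 29.9 and 44.1 CPM in female and 47.2, 50.1 and 51.1 CPM in male Egr1cKO control (-0.53, adjusted p = 0.377). Rps19bp1 read 30.1, 21.7 and 21.7 CPM in female and 17.9, 10.7 and 8.74 CPM in male Cre control (0.98, SE 0.32, adjusted p = 0.0772).

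Members with short and long coding sequences lay apart in some comparisons. Across the 79 members with a mean of at least 10 CPM, the log2 fold change and the log of the coding length had r = 0.54 for the sex difference in wild type and r = -0.41 for that in Cre control. For the Cre effect r was 0.40 in males and -0.47 in females. For the Egr1cKO effect it was 0.13 in males and -0.03 in females. Genes are not independent replicates, the points of a comparison share their libraries, and these values are a description. Over 1567 genes at 100 CPM or more, members included, the values were 0.26 and -0.11 for the 2 sex differences, 0.04 and -0.30 for the Cre effect, and -0.32 and -0.43 for the Egr1cKO effect. With single libraries left out, a check added after the data were seen, the values over the members ran from 0.22 to 0.56 for wild type, lowest without female wild type replicate 2, and from -0.46 to -0.38 for Cre control. They ran from 0.26 (without male wild type replicate 2) to 0.48 for the Cre effect in males and from -0.52 to -0.30 (without female wild type replicate 2) in females. For the Egr1cKO effect they lay on both sides of 0, from -0.11 (without male Egr1cKO control replicate 1) to 0.22 in males and from -0.07 to 0.06 in females, where they were above 0 without female Egr1cKO control replicate 3 or female Egr1cKO replicate 3. Among 519 other genes at 100 CPM or more with coding sequences no longer than the longest member's (1257 bases), the median log2 fold change for Egr1cKO in females was 0.19, against 0.52 over the members. The median coding length of the members was 453 bases, and the 519 genes were not matched to them in length. The part of length in this difference was not tested.

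**Figure D5:**
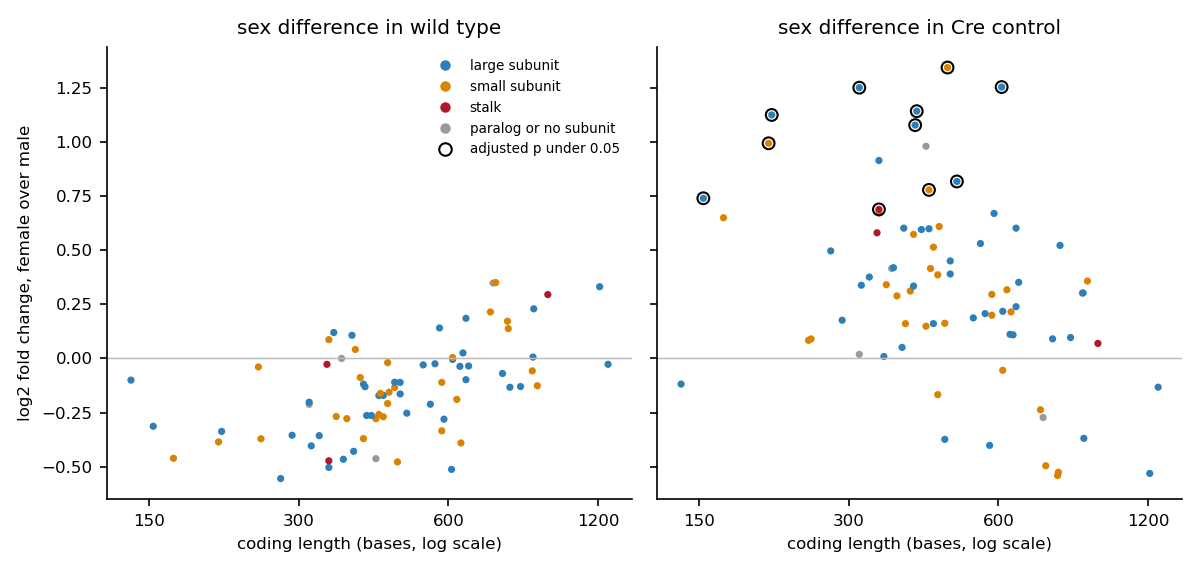
Log2 fold change (female over male) of the 79 members at 10 CPM or more against coding length in bases (log scale), in wild type (left) and Cre control (right). Colours give the role and open circles mark an adjusted p under 0.05. Values rise with length in wild type (r = 0.54) and fall with length in Cre control (r = -0.41).

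Other genes of the translation machinery were read in the same fits. Of 40 ribosome biogenesis genes, 2 rose and 0 fell in female Egr1cKO: Nhp2 (1.23, SE 0.32, adjusted p = 0.0424), a protein of the snoRNA particles that modify ribosomal RNA, and Fbl (0.81, SE 0.21, adjusted p = 0.0426), the ribosomal RNA methyltransferase fibrillarin. The median of the 40 was 0.33, and 0.762% of all genes were called higher in that comparison. Between the sexes in Cre control 3 rose in females (Gnl3, Nop56 and Fbl) and 0 fell, beside 1.6% of all genes called higher. In Egr1cKO 8 rose and 0 fell, beside 5.49% of all genes called higher. Nop56, a partner of fibrillarin, was at 1.41 there (SE 0.26, adjusted p = 0.00158). The median of the ribosomal protein members was 0.32 for the sex difference in Cre control and -0.18 for that in Egr1cKO. A link between the 2 sets of genes was not tested.

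Of 77 mitochondrial ribosomal protein genes, which build a separate ribosome inside mitochondria, 0 passed for Egr1cKO in either sex by edgeR, with medians of 0.29 in females and 0.04 in males. In females 15 had an unadjusted p under 0.05, all higher, beside 7.16% of all genes on that side. DESeq2 called 1 higher in females, and in males both counts were 0. In Cre control 6 rose in females and 0 fell, Mrpl23 (1.02, adjusted p = 0.00605) among them, beside 1.6% of all genes called higher. Of 38 elongation and initiation factors 0 passed for Egr1cKO in either sex by edgeR, with medians of 0.28 in females and 0.21 in males. In females 11 had an unadjusted p under 0.05, all higher, beside the same 7.16% of all genes. DESeq2 called 3 higher in females, and in males these counts were 1 and 0. Averaged over genotypes, 8 of these factors fell in females, Eef1a1 (-0.56, adjusted p = 0.0358) and Eef2 (-0.46, adjusted p = 0.0497) among them, and 2 rose. Of all genes, 11.7% were called lower and 9.99% higher in that comparison.

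Of 16 genes that carry a TOP element or travel with the ribosome but fall outside the naming rule, 0 passed for Egr1cKO in either sex by edgeR or DESeq2, with medians of 0.27 in females and 0.12 in males. At an unadjusted p under 0.05 there were 6 in females and 2 in males, all higher, beside 7.16% and 2.88% of all genes on that side. Naca, a chaperone at the ribosome's exit, rose in female over male Cre control (0.70, adjusted p = 0.0459). Of 30 genes of the TOR pathway and the control of ribosomal protein messengers, 0 passed for Egr1cKO in either sex by edgeR, and the medians were 0.01 in females and -0.00 in males. DESeq2 called 1 higher and 1 lower in females and 0 in males. An unadjusted p under 0.05 was reached by 7 in females and 2 in males, with no share of all genes set beside these counts. Myc, which drives ribosome production, rose in female over male Cre control (2.24, SE 0.29, adjusted p = 5.89e-05), in female Cre control over wild type (1.29, SE 0.28, adjusted p = 0.0228) and in female over male Egr1cKO (1.23, SE 0.29, adjusted p = 0.00813). In these contrasts, in that order, 11, 0 and 0 ribosomal protein members rose and 0, 0 and 1 fell. The shares of all genes called are given with those contrasts above. Any part of Myc in the ribosomal protein values was not tested.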

How the data were processed

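RNA from 24 mouse pituitary samples (1.5 ug total RNA per library, polyA selected, not stranded, per the labels' protocols) was sequenced. The authors deposited whole-number read counts for Ensembl genes, not normalized. Per the submitters' processing notes, Trim Galore 3.8.2, FastQC, STAR 2.7.9 and GRCm38 were used. How reads were counted, shared ones included, is not given in the sources used here. Gene symbols came from GENCODE M21 (35077 of 35191 IDs matched, 114 did not), and promoters from RefSeq GRCm38.p6.

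The members, gene lists and comparisons were chosen with earlier results of these data known. Counts were fitted in edgeR 4.0.16 (R 4.3.3, limma 3.58.1) with TMM scaling, filterByExpr (21927 genes kept), a mean per group over all 24 libraries, and robust quasi-likelihood tests. P-values were adjusted by Benjamini-Hochberg over all genes tested and called at 0.05. CPM values are TMM-scaled and shares are of raw counts. A group does not overlap another when every library lies on 1 side of all of the other's. The fitting code was tested on simulated data with known fold changes. That simulation gave all genes the same spread, smaller than the median spread here, and had no library that stands apart. It checks that the code recovers set changes, not how calls behave under the spread of these data. DESeq2 1.42.0, other scalings and filters, covariates and leaving out each library were alternatives.

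The genes named were up to 4 called members per direction and comparison by size of change, otherwise the 2 with the smallest p, the stalk genes, Rpsa, Rps27a, the paralogs and Rps19bp1, the 3 highest and lowest per length, the 3 most and least variable, and up to 3 per other list by smallest p. Other members were named after their values were seen. Results of some members are not reported here. Totals of 15486069 to 26255343 counts leave the members under 10 CPM with the least precise values. No pair of libraries of the same group agreed within sampling noise (smallest chi-square per degree of freedom 16.3 over 24 pairs). Pairs across groups were not compared. Replicate numbers followed accession order and pair no samples.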

Additional observations from a re-analysis of the deposited data

How the results depend on the processing

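No paired analysis was possible because the replicate numbers follow accession order and tie no library to one of another group. The number of members called in each comparison was recomputed under 10 other fits and with each library left out. Leaving out the paralogs and names without a subunit, or members under 10 CPM, gave the same numbers in all 14. None of these genes was called in the main fit, which was not repeated for this, so the numbers could not change. Of 777 recomputed values of single members and shares, 582 kept their direction and their side of the threshold, 155 dropped below it, 29 passed it, 4 reversed, and 7 shares moved when Gh, Prl and Pomc were left out of the total. The 777 include shares and members not called in the main fit of a comparison, which could not drop below the threshold. The 582 therefore do not measure how well the calls held. With total counts as the only scaling the number of members called was 0 for Egr1cKO in females, 2 for Cre in females, 6 for sex in Cre control, 8 for sex in Egr1cKO, 19 for Cre carriage averaged and 26 for sex averaged. That scaling moved the median of all genes by over 0.1 on the log2 scale in several comparisons, to 0.34 for Cre in males, 0.15 for Egr1cKO in males, -0.26 for sex in Cre control and -0.30 for sex in Egr1cKO, with the members at 0.13, 0.33, 0.10 and -0.37. DESeq2 size factors and upper-quartile scaling each gave 1 for Cre in females. With no filter on low counts the numbers were 6 for Egr1cKO in females, 4 and 9 for Cre in males and females, 7 for sex in Egr1cKO control, 7 for sex in Egr1cKO, 16 for sex by Cre, 1 for Egr1cKO beyond Cre in females, 5 for Cre carriage averaged and 15 for sex averaged. A filter at a mean of 1 CPM gave 4 for Egr1cKO in females, 2 for Cre in females and 2 for sex by Cre. The mitochondrial share as covariate gave 29 for Egr1cKO in females, 1 and 4 for Cre in males and females, 3 for sex in Cre control, 0 for sex in Egr1cKO, 4 for sex by Cre, 9 for Egr1cKO beyond Cre in females, 18 for Cre carriage averaged and 0 for sex averaged. The number of genes detected as covariate gave 1, 2, 1, 3, 0, 3, 2 and 0 for Egr1cKO in females, Cre in males, Cre in females, sex in Cre control, sex in Egr1cKO, sex by Cre, Cre carriage averaged and sex averaged. The fit without robust estimation gave 1 for Egr1cKO in females. DESeq2 gave 8 for Egr1cKO in females, 1 and 4 for Cre in males and females, 1 for sex in Egr1cKO control, 2 for sex in Egr1cKO, 14 for sex by Cre, 4 for Cre carriage averaged and 10 for sex averaged. Fits of only the groups compared gave 9 for Egr1cKO in females, 24 for sex in Egr1cKO control, 15 for sex in Egr1cKO and 0 for sex by Cre, and were not run for the averaged comparisons, which use all groups. With 1 library left out the numbers ran from 0 to 2 for Egr1cKO in females, 0 to 19 for Cre in females, 0 to 3 for sex in wild type, 1 to 34 for sex in Cre control, 0 to 1 for sex in Egr1cKO, 0 to 28 for sex by Cre, 0 to 11 for Egr1cKO beyond Cre in females, 0 to 3 for Cre carriage averaged and 3 to 17 for sex averaged, and were 0 throughout for the other 5. The mitochondrial share as covariate reversed the averaged sex difference of Rps3a1 (0.047), Rps4x (0.018), Rps6 (0.10) and Rpl28 (-0.036). The causes of these changes were not tested. Except where stated above, the shares of all genes called under these alternatives are not given beside the numbers. The numbers therefore show how the calls moved and not whether they moved more than those of other genes. With 3 libraries per group, and few reads behind the 4 members under 10 CPM, differences of the size of the spread between libraries were not detectable.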
